A study of Mus musculus with 6 samples.

Results

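The enzymes of amino acid catabolism were followed in hepatocyte nuclei of pregnant and lactating mice. The set holds 40 named genes of the 40824 genes in the deposited count table, and their rows were read out by symbol and grouped by the amino acid they degrade. Of the 40, 37 passed the filter on low counts and 3 (Hpd, Afmid and Aldh4a1) were listed at 0 in every nucleus. Nuclei came from livers of female wild-type C57BL/6J mice, the only strain and genotype used, and were sequenced one by one with Smart-seq3xpress, a full-length method run in plates. Livers were taken on the day gestation began (G0), in its second part (G14.5, named for the gestation day) and from dams nursing pups for 7 days (P7L). At each stage 1 library was labelled as liver tissue (replicate 1) and 1 as perfusion (replicate 2), so n = 2 libraries per stage. The labels name no animals, so every p-value below measures the spread between libraries, which may be technical. The protocol text speaks of hand-picked hepatocytes after perfusion, while the titles speak of nuclei.

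Hepatocytes degrade most of the amino acids that reach the liver from the gut and from other tissues. The nitrogen goes through transaminases and glutamate to the urea cycle, and the carbon skeletons feed gluconeogenesis, ketone bodies or the citric acid cycle. Nitrogen-handling and glucose-forming steps are known to be enriched near the portal vein, where blood enters the liver lobule, and less so near the central vein. Levels of several of these enzymes are known to follow protein intake, glucagon and glucocorticoids.

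The 6 libraries held 184 to 308 nuclei and 226030591 to 379767336 reads, with a median of 731494 to 1191576 reads per nucleus. Levels below are normalised CPM, the reads of a gene summed over the nuclei of a library and scaled to a common total with TMM (trimmed mean of M-values). CPM of single nuclei, or of a part of the nuclei of a library, are scaled to their total reads without TMM. A gene is called higher or lower when the adjusted p of edgeR's quasi-likelihood test, corrected over the 15015 genes tested, is under 0.05. Markers of hepatocytes took 1.12% to 1.55% of the reads of a library. Each of the 7 lists of markers for other cell types took at most 0.00382%, and none passed 1% of the reads in any single nucleus. Lrat, Ms4a1, Retnlg and Alas2 among those markers were at 0.

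At G14.5 against G0, 16 of the 37 tested members were lower, 3 (Tat, Hgd and Gldc) were higher and 18 were not called, where 11.9% of all genes tested were called (6.93% higher and 5.01% lower). The median log2 fold change was -0.33 for the members and -0.01 for all genes. At P7L against G14.5, 14 members were higher, 3 (Agxt, Cdo1 and Csad) were lower and 20 were not called, where 9.26% of all genes were called (4.2% higher and 5.06% lower). The median log2 fold change was 0.53 for the members and -0.0024 for all genes. Fewer members separated P7L from G0, with 5 higher (Tat, Hgd, Tdo2, Gpt2 and Gldc) and 2 lower (Agxt and Cdo1), where 2.92% of all genes were called (1.56% higher and 1.36% lower). The median log2 fold change in that comparison was -0.11 for the members and 0.01 for all genes.

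In total 23 members were called in at least 1 of the 3 comparisons, which 15.9% of all genes were, and 14 in none. A set of 13 members was both lower at G14.5 than at G0 and higher at P7L than at G14.5, namely Aass, Agxt2, Cth, Etnppl, Fah, Gls2, Gpt, Gpt2, Hal, Mccc1, Prodh, Sds and Tdo2, a pattern that 2.54% of all genes had. Both of these comparisons use the same 2 libraries of G14.5, so they are not independent. Leaving out the G14.5 liver tissue library kept 10 of the 19 calls of G14.5 against G0 and 9 of the 17 calls of P7L against G14.5, and leaving out either P7L library also kept 9 of the 17. The 7 calls of P7L against G0 were all lost without either P7L library, and the count was 1 with filterByExpr as the only filter and 11 with DESeq2.

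**Figure D1:**
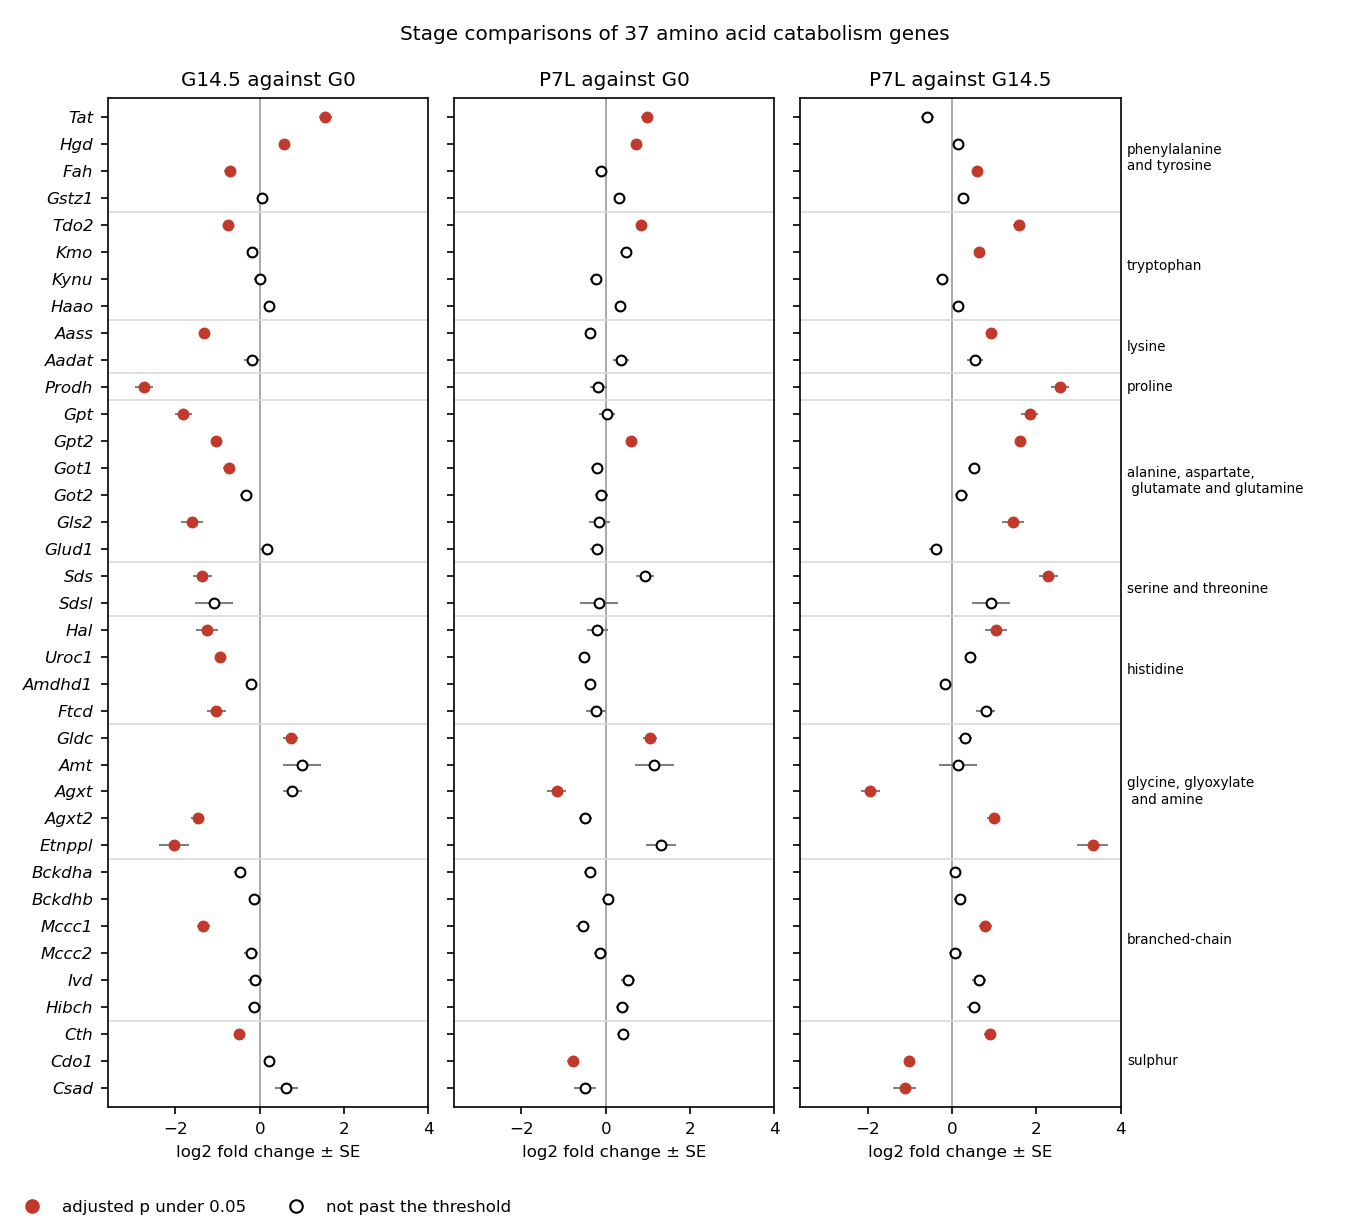
Log2 fold change with its standard error for the 37 tested members in the 3 stage comparisons, grouped by the amino acid degraded. Filled points passed an adjusted p of 0.05, which 19 members did at G14.5 against G0, 7 at P7L against G0 and 17 at P7L against G14.5.

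The upstream sequences of 4 members are shown so that their changes can be read beside the DNA before the start site. They are the 250 bases before the RefSeq start on build GRCm38.p6, 5′ to 3′ on the strand of the gene, for Prodh (the largest fall at G14.5 against G0, chr16:18089191-18089440, minus strand), Etnppl (the largest difference between P7L and G14.5, chr3:130617198-130617447, plus strand), Agxt2 (chosen after its HNF4 motif was seen, chr15:10358283-10358532, plus strand) and Tat (the largest rise at G14.5 against G0, chr8:109990186-109990435, plus strand). Capitals mark motif matches on either strand.
Prodh: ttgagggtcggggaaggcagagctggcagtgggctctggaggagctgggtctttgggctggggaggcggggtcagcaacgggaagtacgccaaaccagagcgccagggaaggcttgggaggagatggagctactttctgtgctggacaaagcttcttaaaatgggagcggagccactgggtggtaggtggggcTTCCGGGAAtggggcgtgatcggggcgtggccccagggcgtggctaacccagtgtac
Etnppl: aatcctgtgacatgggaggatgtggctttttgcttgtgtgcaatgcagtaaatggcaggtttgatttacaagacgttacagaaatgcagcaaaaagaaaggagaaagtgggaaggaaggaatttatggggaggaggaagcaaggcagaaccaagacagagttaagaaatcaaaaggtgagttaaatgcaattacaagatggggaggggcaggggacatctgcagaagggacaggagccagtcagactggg
Agxt2: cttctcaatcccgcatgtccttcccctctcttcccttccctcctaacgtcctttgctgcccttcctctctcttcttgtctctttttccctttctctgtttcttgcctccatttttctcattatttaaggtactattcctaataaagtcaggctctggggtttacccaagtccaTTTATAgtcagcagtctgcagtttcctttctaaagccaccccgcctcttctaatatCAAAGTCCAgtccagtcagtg
Tat: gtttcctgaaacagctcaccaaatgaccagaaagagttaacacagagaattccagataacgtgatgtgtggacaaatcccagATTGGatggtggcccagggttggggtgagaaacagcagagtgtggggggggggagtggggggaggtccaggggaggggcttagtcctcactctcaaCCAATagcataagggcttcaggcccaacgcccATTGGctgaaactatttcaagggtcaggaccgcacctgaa
In Prodh the capitals are a STAT motif (TTCNNNGAA) whose first base lies 57 bases before the start. That window lies inside the GENCODE M21 span of Prodh (chr16:18060357-18090203), so the distance holds for the RefSeq start only. In Agxt2 they are an HNF4 motif (CAAAGTCCA) at 21 bases and a TATA box (TATAAA) at 77 bases. In Tat they are 3 CAAT boxes (CCAAT) at 168, 72 and 40 bases, and the window of Etnppl held none of the 8 motifs searched.

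The same windows were available for 33 of the 40 members. The HNF4 motif was in 2 of them (Agxt2 and Aadat), 6.06% of the members against 0.384% of 32851 promoters. A CAAT box was in 16, or 48.5% against 33.9%, and a TATA box in 6, or 18.2% against 12.4%. The STAT motif was in 2 (Prodh and Ivd), or 6.06% against 7.02%, and the cAMP response element half-site TGACGT in 2, or 6.06% against 6.47%. The full element TGACGTCA (1.55% of promoters), the FOXO and FOXA motif TGTTTAC (3.17%) and a glucocorticoid response element (0.387%) matched no member. These matches describe letters in a short window and say nothing of binding.

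The tyrosine enzyme Tat had the largest rise of any member at G14.5 against G0. Values per library are given in the order liver tissue, then perfusion. Tat, the tyrosine aminotransferase that starts the pathway, was at 246 and 228 CPM in the G0 libraries, 636 and 768 in those of G14.5 and 402 and 540 in those of P7L. The stages did not overlap, and G14.5 was the highest. The log2 fold change was 1.56 ± 0.15 at G14.5 against G0 (adjusted p = 0.00183) and 0.98 ± 0.15 at P7L against G0 (adjusted p = 0.0283), while P7L against G14.5 was -0.58 ± 0.15 (adjusted p = 0.059).

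Hgd, the homogentisate dioxygenase that opens the ring, was at 815 and 816 CPM in the G0 libraries, 1207 and 1209 in those of G14.5 and 1353 and 1338 in those of P7L. Both later stages lay above both G0 libraries, with log2 fold changes of 0.57 ± 0.10 (adjusted p = 0.0147) and 0.72 ± 0.10 (adjusted p = 0.0223). Fah, the hydrolase of the last step, went the other way at G14.5. It was at 336 and 420 CPM in the G0 libraries, 200.0 and 261 in those of G14.5 and 337 and 355 in those of P7L, so that only G14.5 stood apart. It was lower at G14.5 than at G0 by a log2 fold change of -0.72 ± 0.13 (adjusted p = 0.0166) and higher at P7L than at G14.5 by 0.60 ± 0.13 (adjusted p = 0.0333). The second of these calls was kept in 7 of 10 alternatives that used every library and lobular zone. Its log2 fold change ran from 0.46 to 0.80 over all 18 alternatives. Gstz1, the isomerase between Hgd and Fah, ranged from 410 to 523 CPM and was called in no comparison.

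Tryptophan breakdown changed at its first step and at 1 later one. Tdo2, the tryptophan dioxygenase that limits the pathway in liver, was at 554 and 719 CPM in the G0 libraries, 391.7 and 362 in those of G14.5 and 1059 and 1220 in those of P7L. The 3 stages did not overlap, with G14.5 lowest and P7L highest. Tdo2 was the only member called in all 3 comparisons besides Gpt2, with log2 fold changes of -0.74 ± 0.14 at G14.5 against G0 (adjusted p = 0.0183), 0.85 ± 0.14 at P7L against G0 (adjusted p = 0.0317) and 1.59 ± 0.14 at P7L against G14.5 (adjusted p = 0.00116). Kmo, the kynurenine hydroxylase, was at 233 and 246 CPM in the G0 libraries, 216 and 207 in those of G14.5 and 341 and 323 in those of P7L. P7L lay above both other stages, and the difference from G14.5 passed the test (0.65 ± 0.12, adjusted p = 0.0208). Kynu (596 to 833 CPM) and Haao (311 to 410 CPM), which act downstream of Kmo, were called in no comparison.

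For lysine, Aass, the enzyme of the first 2 steps of the saccharopine route, was at 551 and 538 CPM in the G0 libraries, 213 and 222 in those of G14.5 and 396 and 439 in those of P7L. G14.5 was lowest and P7L lay between the other stages. The log2 fold change was -1.32 ± 0.12 at G14.5 against G0 (adjusted p = 0.00118) and 0.94 ± 0.12 at P7L against G14.5 (adjusted p = 0.00402). Aadat, the aminoadipate aminotransferase of the next part of the route, ranged from 72.2 to 119 CPM with no call.

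Proline breakdown gave the largest fall of any member at G14.5 against G0. Prodh, the proline dehydrogenase of mitochondria, was at 152 and 151 CPM in the G0 libraries, 17.7 and 28.2 in those of G14.5 and 125 and 144 in those of P7L. Both G14.5 libraries were far below all others, and P7L came close to G0. The log2 fold change was -2.75 ± 0.21 at G14.5 against G0 (adjusted p = 0.000634), 2.57 ± 0.21 at P7L against G14.5 (adjusted p = 0.0008) and -0.18 ± 0.20 at P7L against G0 (adjusted p = 0.643). Prodh2, the related dehydrogenase of hydroxyproline and not a member, rose at G14.5 against G0 (0.85 ± 0.15, adjusted p = 0.0158).

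Alanine aminotransferase has a cytosolic form, Gpt, and a mitochondrial form, Gpt2, and both were lowest at G14.5. Gpt was at 119 and 106 CPM in the G0 libraries, 29.1 and 35.1 in those of G14.5 and 98.1 and 135 in those of P7L. Gpt2 was at 748 and 817 CPM in the G0 libraries, 353 and 417 in those of G14.5 and 1094 and 1271 in those of P7L. G14.5 lay below the other stages for both genes, and P7L lay above G0 for Gpt2 but overlapped it for Gpt. At G14.5 against G0 the log2 fold change was -1.82 ± 0.20 for Gpt (adjusted p = 0.00282) and -1.03 ± 0.11 for Gpt2 (adjusted p = 0.00214). At P7L against G14.5 it was 1.85 ± 0.20 for Gpt (adjusted p = 0.00244) and 1.62 ± 0.11 for Gpt2 (adjusted p = 0.000397). Gpt2 was also higher at P7L than at G0 (0.59 ± 0.11, adjusted p = 0.0373).

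Gls2, the liver glutaminase that frees ammonia from glutamine, was at 285 and 218 CPM in the G0 libraries, 65.4 and 105 in those of G14.5 and 192 and 272 in those of P7L. G14.5 was below both other stages, which overlapped each other. Its log2 fold change was -1.61 ± 0.26 at G14.5 against G0 (adjusted p = 0.0103) and 1.45 ± 0.25 at P7L against G14.5 (adjusted p = 0.0148). Got1, the cytosolic aspartate aminotransferase, was at 375 and 377 CPM in the G0 libraries, 196 and 258 in those of G14.5 and 295 and 359 in those of P7L, with G14.5 lowest. It was lower at G14.5 than at G0 (-0.74 ± 0.14, adjusted p = 0.0179), and P7L against G14.5 gave 0.53 ± 0.14 (adjusted p = 0.0609). The mitochondrial form Got2 (102 to 142 CPM) and the glutamate dehydrogenase Glud1 (356 to 550 CPM) were called in no comparison.

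Sds, the serine dehydratase that turns serine into pyruvate, was at 140 and 129 CPM in the G0 libraries, 49.7 and 56.0 in those of G14.5 and 197 and 330 in those of P7L. The stages did not overlap, with G14.5 lowest and P7L highest. The log2 fold change was -1.36 ± 0.22 at G14.5 against G0 (adjusted p = 0.0101) and 2.29 ± 0.22 at P7L against G14.5 (adjusted p = 0.00159), and P7L against G0 gave 0.93 ± 0.22 (adjusted p = 0.0713). Its neighbour and paralog Sdsl was counted at only 2.85 to 7.43 CPM and was called in no comparison. In GENCODE M21 the pair lies head to head on chromosome 5, Sds at chr5:120476526-120483932 (plus strand) and Sdsl at chr5:120458186-120472810 (minus strand).

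All 4 histidine enzymes were counted, and 3 of them fell at G14.5. Hal, the histidine ammonia-lyase of the first step, was at 453 and 349 CPM in the G0 libraries, 137 and 214 in those of G14.5 and 279 and 446 in those of P7L. Uroc1, the urocanate hydratase of the second step, was at 1701 and 1803 CPM in the G0 libraries, 808 and 1025 in those of G14.5 and 1096 and 1358 in those of P7L. Ftcd, which passes the last carbon to folate, was at 397 and 367 CPM in the G0 libraries, 136 and 258 in those of G14.5 and 280 and 391 in those of P7L. G14.5 lay below G0 without overlap for all 3 genes. The log2 fold changes at G14.5 against G0 were -1.25 ± 0.26 for Hal (adjusted p = 0.0246), -0.95 ± 0.11 for Uroc1 (adjusted p = 0.00359) and -1.03 ± 0.23 for Ftcd (adjusted p = 0.0313). Hal and Ftcd lost this call without the G14.5 liver tissue library, which was the lower of the 2 G14.5 libraries for both. At P7L against G14.5 Hal was higher (1.04 ± 0.25, adjusted p = 0.0485), a call that RLE size factors in place of TMM ended (adjusted p = 0.0517), and its adjusted p ran from 0.000811 to 0.334 over all alternatives. Amdhd1, the enzyme after Uroc1, stayed between 296 and 447 CPM with no call, at -0.21 ± 0.11 for G14.5 against G0 (adjusted p = 0.263).

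The glycine, glyoxylate and amine group did not move one way. Gldc, the decarboxylase of the glycine cleavage system, was at 184 and 159 CPM in the G0 libraries, 243 and 332 in those of G14.5 and 332 and 382 in those of P7L. Both later stages were above G0, with log2 fold changes of 0.73 ± 0.17 (adjusted p = 0.0382) and 1.05 ± 0.17 (adjusted p = 0.0317). The first of these calls was kept in 7 of 10 alternatives that used every library and lobular zone. Its log2 fold change ran from 0.46 to 1.01 over all 18 alternatives. Agxt, the aminotransferase that turns glyoxylate into glycine, was at 58.7 and 57.0 CPM in the G0 libraries, 78.8 and 125 in those of G14.5 and 22.4 and 30.2 in those of P7L. G14.5 was highest and P7L lowest, without overlap between stages. The log2 fold change was -1.94 ± 0.23 at P7L against G14.5 (adjusted p = 0.00304) and -1.16 ± 0.22 at P7L against G0 (adjusted p = 0.0446), while G14.5 against G0 gave 0.77 ± 0.22 (adjusted p = 0.065).

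Agxt2, a mitochondrial aminotransferase of glyoxylate, was at 232 and 283 CPM in the G0 libraries, 91.3 and 93.6 in those of G14.5 and 193 and 174 in those of P7L. G14.5 was lowest, with log2 fold changes of -1.47 ± 0.16 against G0 (adjusted p = 0.00227) and 0.99 ± 0.15 at P7L against G14.5 (adjusted p = 0.00956). The same-strand gene model Gm21973 covers 29.5% of the span of Agxt2 and was at 11.9 and 11.3 CPM in the G0 libraries, 108 and 45.1 in those of G14.5 and 15.01 and 11.7 in those of P7L, the opposite direction to Agxt2. How reads were shared between the pair was not tested. Etnppl, the lyase of phosphoethanolamine, was at 47.8 and 36.6 CPM in the G0 libraries, 7.01 and 15.4 in those of G14.5 and 84.2 and 138 in those of P7L. Its stages did not overlap, and it had the largest difference between P7L and G14.5 of any member (3.34 ± 0.38, adjusted p = 0.00264), with -2.04 ± 0.36 at G14.5 against G0 (adjusted p = 0.0149). Amt, another part of the glycine cleavage system, was counted at 2.27 to 9.12 CPM with no call.

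In the branched-chain group 1 of 6 members was called in at least 1 comparison, which 15.9% of all genes were. At an unadjusted edgeR p under 0.05 there were 2 members at G14.5 against G0 (29.3% of all genes). There were 4 at P7L against G0 (21.2%) and 3 at P7L against G14.5 (23.6%). Mccc1, the biotin-bearing subunit of methylcrotonyl-CoA carboxylase in leucine breakdown, was at 202 and 192 CPM in the G0 libraries, 71.7 and 84.6 in those of G14.5 and 131 and 140 in those of P7L. The stages did not overlap. The log2 fold change was -1.34 ± 0.15 at G14.5 against G0 (adjusted p = 0.00295) and 0.79 ± 0.15 at P7L against G14.5 (adjusted p = 0.0197). Its partner subunit Mccc2 was at 172 to 220 CPM with -0.21 ± 0.16 at G14.5 against G0 (adjusted p = 0.427). An antisense gene, Gm15952, covers 76.2% of the span of Mccc1 and held 10168 reads against 225900 for Mccc1. Whether counting used strand is not given in the sources used here. Of protein-coding genes inside an opposite-strand gene only, 84.1% were at 0. How many Mccc1 reads the overlap left uncounted was not tested. Bckdha and Bckdhb, the subunits of the decarboxylase that commits all 3 branched-chain amino acids to breakdown, were at 163 to 248 and 641 to 803 CPM, and Ivd (114 to 189 CPM) and Hibch (97.4 to 153 CPM) act further down. None of these was called.

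The sulphur group split. Cth, the cystathionine lyase that makes cysteine, was at 323 and 358 CPM in the G0 libraries, 211 and 275 in those of G14.5 and 398 and 505 in those of P7L, without overlap between stages. It was lower at G14.5 than at G0 (-0.50 ± 0.12, adjusted p = 0.0442) and higher at P7L than at G14.5 (0.89 ± 0.12, adjusted p = 0.00598). The first of these calls was kept in 5 of 18 alternatives and in 1 of the 6 fits that left out a library, with adjusted p from 0.0171 to 0.252. Cdo1, the dioxygenase that commits cysteine to sulfate and taurine, was at 1209 and 1199 CPM in the G0 libraries, 1400 and 1423 in those of G14.5 and 609 and 805 in those of P7L. P7L was lowest, by a log2 fold change of -1.01 ± 0.13 against G14.5 (adjusted p = 0.00516) and -0.78 ± 0.13 against G0 (adjusted p = 0.0332). Csad, the next enzyme toward taurine, was at 32.4 and 19.4 CPM in the G0 libraries, 47.8 and 31.7 in those of G14.5 and 17.9 and 17.6 in those of P7L. P7L was lower than G14.5 (-1.12 ± 0.27, adjusted p = 0.0463), a call that scaling by library size alone ended (-0.92, adjusted p = 0.0753), and its adjusted p ran from 0.000507 to 0.946 over all alternatives.

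**Figure D2:**
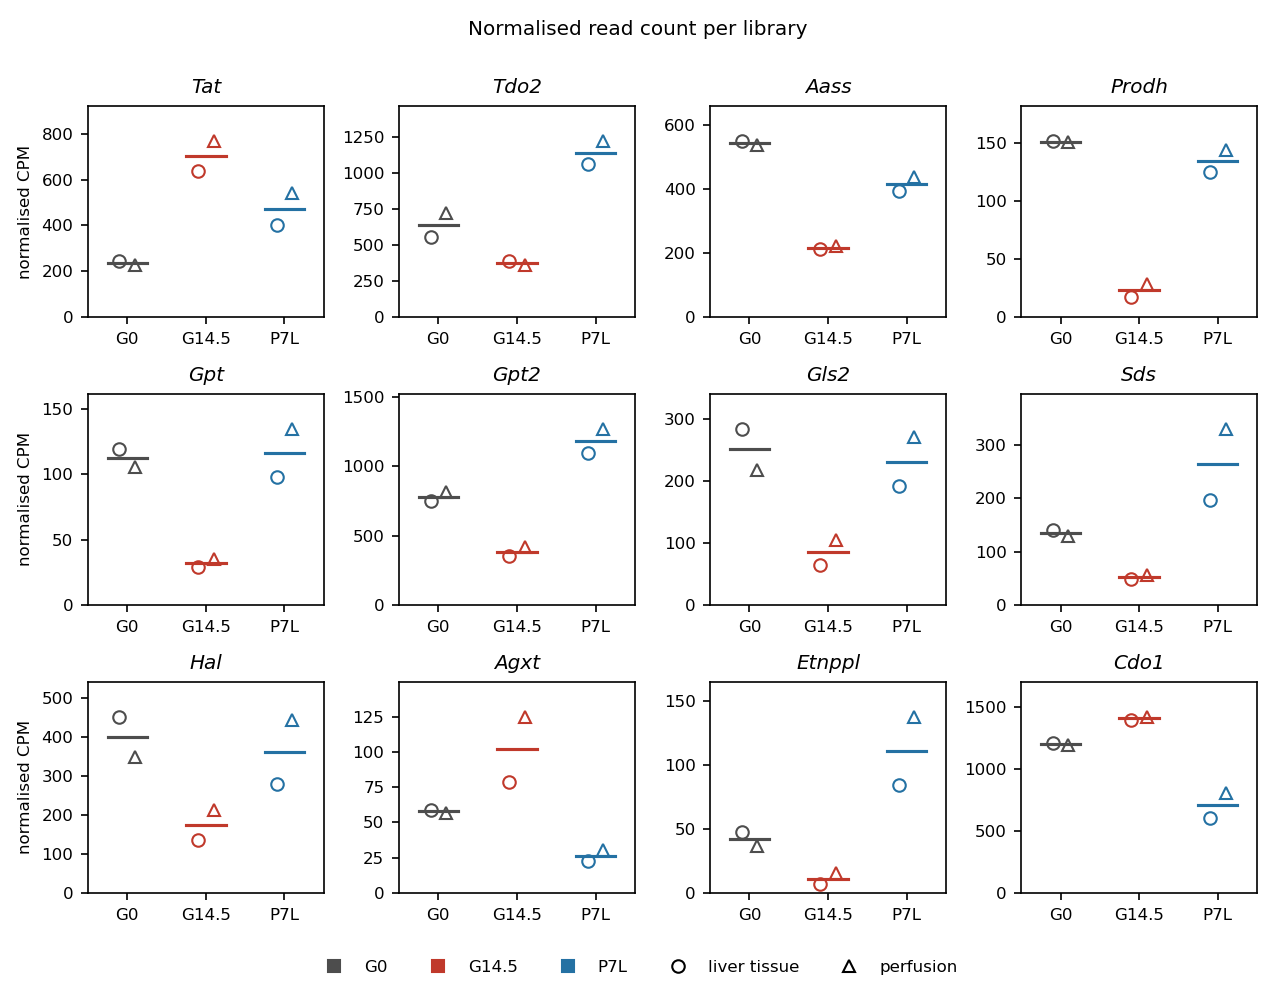
Normalised CPM of 12 members in each of the 6 libraries, by stage, with circles for liver tissue, triangles for perfusion and a bar at the mean of the pair. Prodh falls from 152 and 151 CPM at G0 to 17.7 and 28.2 at G14.5, while Agxt and Cdo1 are lowest at P7L.

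Levels can be compared between genes only per length, for which the authors' length-scaled values were used (per 100000 in a nucleus, averaged per library). By the mean over 6 libraries Cdo1 (214), Hgd (195), Bckdhb (147) and Uroc1 (120) were the highest members on that scale. Csad (3.6), Amt (1.47) and Sdsl (1.06) were the lowest members with reads. Within pairs, the mean was 66.7 for Gpt2 and 15.1 for Gpt, and 45.2 for Got1 and 14.3 for Got2. It was 27.6 for Mccc2 and 5.78 for Mccc1, and 39.0 for Sds and 1.06 for Sdsl. An antisense gene covers 76.2% of the span of Mccc1, and its effect on the mean of Mccc1 was not tested.

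The 3 members listed at 0 were Hpd, the dioxygenase between Tat and Hgd, Afmid, the kynurenine formamidase, and Aldh4a1, the dehydrogenase after Prodh. In GENCODE M21 at least 99.97% of the span of each lies inside another gene on the same strand, Gm26745 for Hpd, Gm20708 for Afmid and Gm21969 for Aldh4a1. Among all protein-coding genes, 305 of 369 that lie wholly inside a same-strand gene were at 0 (82.7%), and 638 of 759 that lie inside an opposite-strand gene only (84.1%). The share was 16.2% among genes with no overlap and 3.63% among those with a partial overlap. Hpd and Aldh4a1 fall in the first of these classes and Afmid in the last. The 3 zeros are therefore given as listed values, with no statement on expression.

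Several members that fell at G14.5 were also read in a smaller share of nuclei there. Shares were taken after thinning each nucleus to 250000 reads, which left out 35 of 1567 nuclei, and have exact Clopper-Pearson 95% intervals that cover counting error only. Prodh had a read in 91.6% (87.3% to 94.8%) and 85.6% (79.7% to 90.4%) of nuclei at G0, 46.0% (39.3% to 52.7%) and 44.0% (38.3% to 49.8%) at G14.5, and 97.96% and 96.3% at P7L. Gpt had one in 91.1% and 89.5% in the G0 libraries, 61.2% and 61.0% in those of G14.5 and 96.3% and 98.3% in those of P7L. For both genes the intervals of the G14.5 libraries lay below those of all other libraries.

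Etnppl was read in few nuclei at any stage before P7L, in 41.4% and 33.7% in the G0 libraries, 14.7% and 23.3% in those of G14.5 and 66.3% and 80.4% in those of P7L. The tenth of nuclei with the highest Etnppl held 96.1% and 90.0% of its CPM at G14.5 and 69.6% and 58.8% at P7L. Sds was read in 63.3% and 60.8% of nuclei in the G0 libraries, 34.4% and 49.7% in those of G14.5 and 78.2% and 84.5% in those of P7L. Tat was read in at least 95.6% of nuclei in every library. Its median per nucleus was 207 and 160 CPM at G0 and 545 and 699.6 at G14.5.

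**Figure D3:**
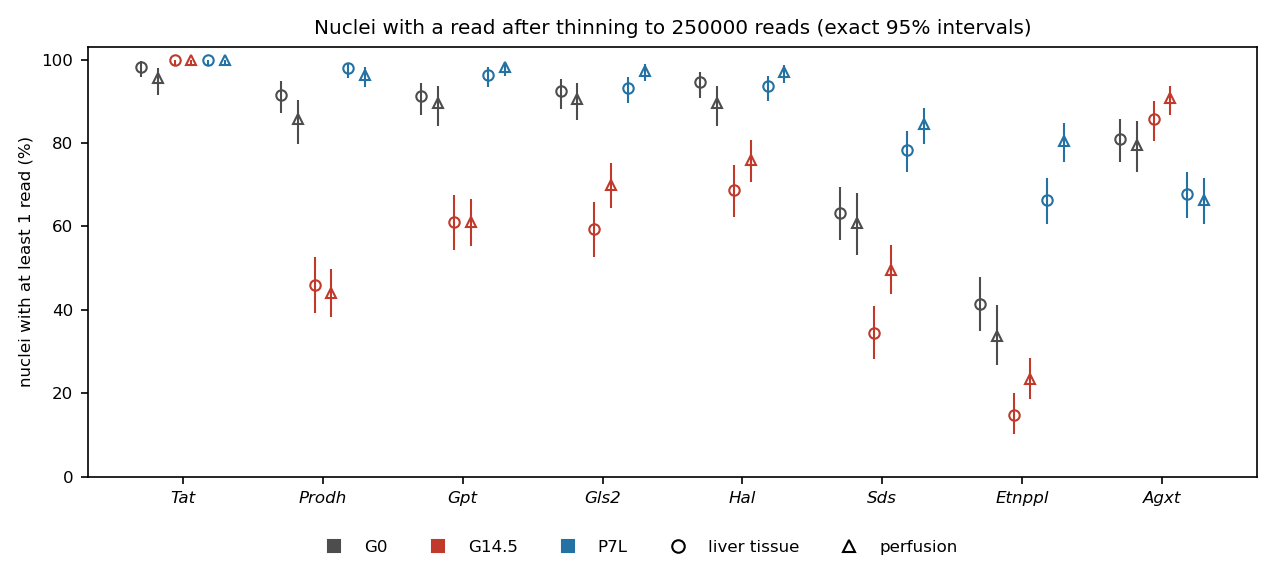
Share of nuclei with at least 1 read of 8 members after thinning to 250000 reads, per library, with exact 95% intervals over nuclei. Prodh is read in 46.0% and 44.0% of nuclei at G14.5 and in at least 85.6% in each other library, and Tat in nearly all nuclei throughout.

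For position in the lobule, the nuclei of each library were ranked by a score (10 pericentral genes minus 10 periportal genes, none of them members) and split into 3 ranges of equal size. They are ranges, not cell types, and 19 to 31 nuclei per library lay close to a cut. Of 9 counted check genes outside the score, 8 had their known direction in all 6 libraries. Pericentral Slc1a2, which carries glutamate, had a mean log2 ratio of pericentral to periportal CPM of 7.02, and periportal Arg1 and Asl of the urea cycle had -1.25 and -1.74. Apoa4 did not keep 1 direction, at 0.80 in the G0 liver tissue library and below 0 in the other 5. The ratio in each library uses a pseudocount of 0.5 CPM and is given with no test. CPM of a range are scaled to its total reads, without TMM.

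Of the 37 members, 13 were higher in the periportal range in all 6 libraries, where 4.87% of all genes were, and 5 were higher in the pericentral range in all 6, where 5.6% were. The steepest periportal member was Sds, with log2 ratios between -6.84 and -6.54 from 1.00 to 6.56 CPM in the pericentral range and 140 to 727 in the periportal one. Etnppl (-4.84 ± 0.87, mean and SD over 6 libraries), Hal (-4.17 ± 1.51), Sdsl (-3.69 ± 0.88), Gls2 (-3.54 ± 1.78) and Gldc (-2.45 ± 0.37) followed. The remaining histidine enzymes were also periportal, Ftcd at -1.73 ± 0.63, Amdhd1 at -1.67 ± 0.71 and Uroc1 at -1.61 ± 0.33. Got1 (-1.30 ± 0.60), Agxt (-0.66 ± 0.39), Tat (-0.60 ± 0.35) and Cth (-0.31 ± 0.27) completed the 13, and the value of Cth nearest 0 was -0.0026, in the G14.5 perfusion library.

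The 5 pericentral members were Csad (2.98 ± 1.47), Agxt2 (0.90 ± 0.35), Prodh (0.85 ± 0.33), Aadat (0.60 ± 0.79) and Bckdhb (0.21 ± 0.18). Aadat was at 0.90 and 2.07 in the G0 libraries and from 0.04 to 0.28 in the later stages. Enzymes of 1 pathway or family did not share a zone in every case. Agxt2 was pericentral and Etnppl periportal. The Spearman correlation of their read counts across thinned nuclei was -0.15 as the median of 6 libraries. By contrast consecutive histidine steps went together, at 0.54 for Hal and Uroc1, 0.55 for Uroc1 and Amdhd1 and 0.48 for Amdhd1 and Ftcd. These correlations are across nuclei of 1 library at equal depth, share the zone of the nucleus, and are given as a description. The other tyrosine and tryptophan enzymes, most of the branched-chain group, Gpt, Gpt2, Got2, Glud1 and Aass lay between -0.40 and 0.31 on average. Each of them changed sign between libraries. Such means can hide differences between stages. Kynu was at -0.93 in both G14.5 libraries and at -0.05 and 0.07 in those of P7L. Mccc1 was at 0.89 and 0.53 in the G0 libraries and -0.59 and -0.17 in those of G14.5. Glud1 was at 0.61 and 0.66 in the G14.5 libraries. Cdo1 was pericentral in 5 of 6 libraries (0.50 ± 0.42).

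**Figure D4:**
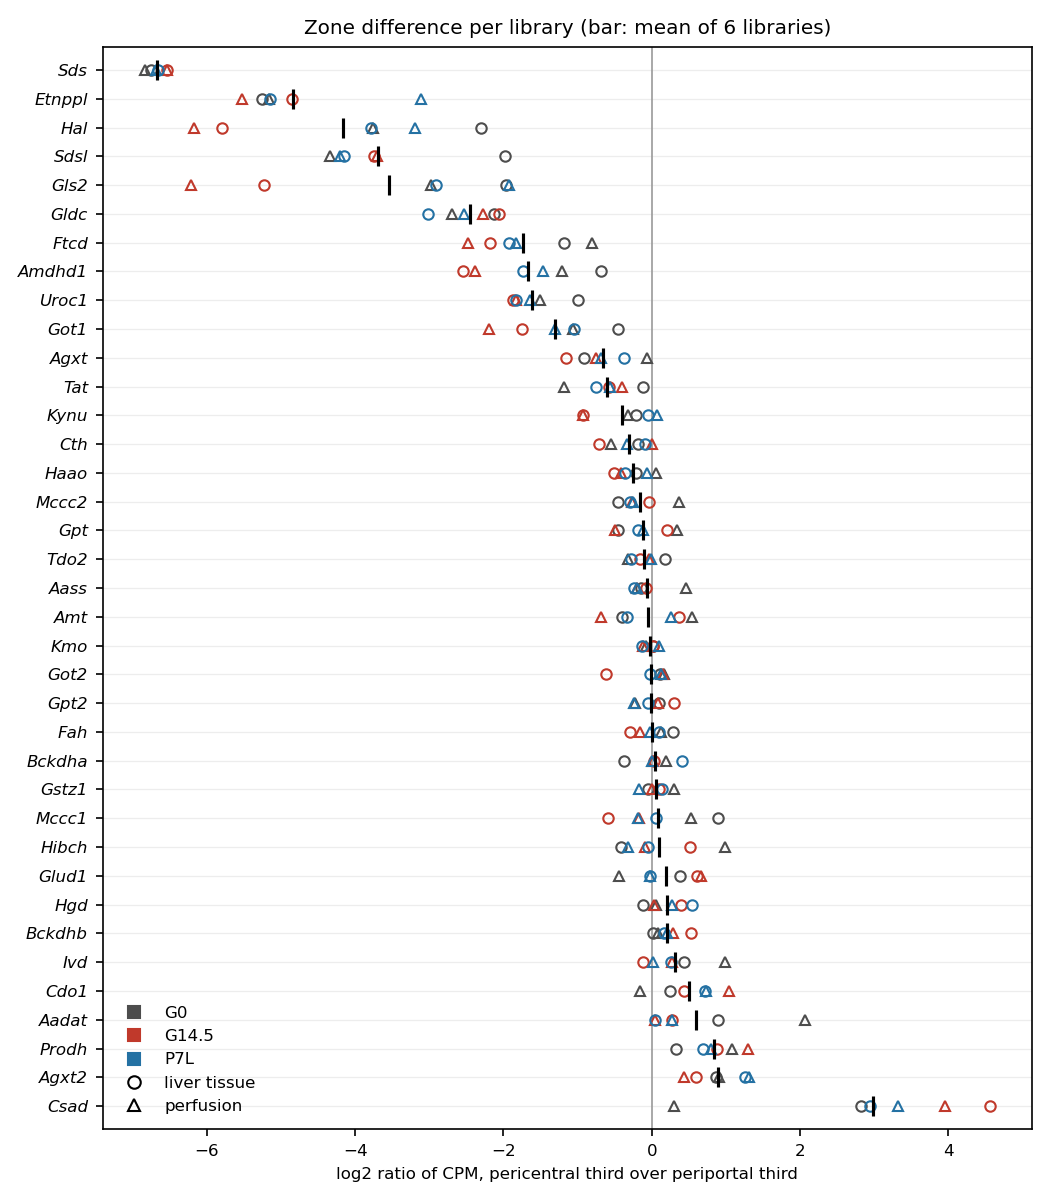
Log2 ratio of CPM in the pericentral to the periportal range for the 37 tested members, 1 point per library (circles liver tissue, triangles perfusion, colour by stage) and a bar at the mean of 6 libraries. Sds is the steepest periportal member and Csad the steepest pericentral one, and the G14.5 points of Hal and Gls2 lie to the left of the others.

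Gls2 and Hal had their lowest values of all ranges and stages in the pericentral range at G14.5. In that range Gls2 was at 109 and 52.1 CPM in the G0 libraries, 3.37 and 2.44 in those of G14.5 and 46.9 and 110 in those of P7L. In the periportal range it was at 427 and 414 CPM in the G0 libraries, 145 and 217 in those of G14.5 and 357 and 421 in those of P7L. G14.5 was lowest in both ranges, without overlap with the other stages. The ranges were cut within each library, and some score genes changed with stage. At G14.5 against G0, 3 of the 10 pericentral score genes were lower. Of the 10 periportal ones, 3 were lower and 1 higher, where 5.01% and 6.93% of all genes were. Whether a range held the same lobular position at each stage was not tested.

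Hal in the pericentral range was at 155 and 51.1 CPM in the G0 libraries, 6.02 and 6.22 in those of G14.5 and 47.3 and 88.1 in those of P7L, and in the periportal range at 764 and 701, 362 and 486, and 661 and 811. Fitted in each range alone, G14.5 against G0 gave log2 fold changes of -4.70 ± 0.61 (adjusted p = 0.00945) and -1.13 ± 0.21 (adjusted p = 0.0526) for Gls2, pericentral first. For Hal they were -3.93 ± 0.63 (adjusted p = 0.0177) and -0.69 ± 0.18 (adjusted p = 0.116). Ftcd gave -2.05 ± 0.20 (adjusted p = 0.00287) and -0.69 ± 0.22 (adjusted p = 0.176).

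Amdhd1, uncalled over all nuclei, was lower in the pericentral range (-1.35 ± 0.23, adjusted p = 0.0211) and at 0.19 ± 0.16 in the periportal range (adjusted p = 0.587). Over all members the pericentral range had 14 lower and 2 higher at G14.5 against G0, where 2.42% and 3.52% of all genes were, and the periportal range had 5 lower and 1 higher, where 0.623% and 1.15% were. At an unadjusted edgeR p under 0.05 the ranges had 24 and 22 members, and the difference between these counts of calls was not tested. The share of all genes under that unadjusted p was 29.3% over all nuclei and was not counted within each range. At P7L against G14.5 the pericentral range had 13 higher and 2 lower, where 1.78% and 2.19% were, and the periportal range 6 and 1, where 0.712% and 1.21% were. At P7L against G0 edgeR called 0 members in either range. Of all genes, 0.176% were called higher and 0.183% lower in the pericentral range, and 0% and 0.00684% in the periportal one. At an unadjusted edgeR p under 0.05 each range had 15 members. The share of all genes at that unadjusted threshold was 21.2% over all nuclei and was not counted within each range. Prodh was lower in both ranges, at -2.59 ± 0.25 (adjusted p = 0.00287) and -3.00 ± 0.32 (adjusted p = 0.00817), as was Gpt at -1.92 ± 0.27 (adjusted p = 0.0126) and -1.83 ± 0.32 (adjusted p = 0.0431).

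Whether the zone difference itself changed was tested with an edgeR fit of the ranges, with library as a block and 3 residual degrees of freedom. No member passed at G14.5 against G0, where 0.0133% of all genes did. On counts simulated with known changes, this fit found 2% of 2-fold, 20% of 4-fold, 44% of 8-fold and 66% of 16-fold changes. Of its 81 calls there, 15 were false. The simulation changed 50 of 15015 genes at each fold size, and its rates need not hold for the data. The change of the log2 ratio was -3.49 ± 0.52 for Gls2 (adjusted p = 0.223), -3.08 ± 0.49 for Hal (adjusted p = 0.223), -1.37 ± 0.22 for Ftcd (adjusted p = 0.233) and -1.54 ± 0.27 for Amdhd1 (adjusted p = 0.267). At an unadjusted edgeR p under 0.05 there were 11 of 37 members, against 8.27% of all genes. No member passed in the other 2 comparisons, with 5 at an unadjusted p under 0.05 at P7L against G0 (5.97% of all genes) and 7 at P7L against G14.5 (4.14% of all genes). The periportal check genes Ass1, Asl, Arg1 and Slc7a2 also had lower ratios at G14.5 than at G0, with fitted changes from -1.15 to -1.01 and adjusted p from 0.354 to 0.52, and the part of this shared shift in the members' values was not tested.

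**Figure D5:**
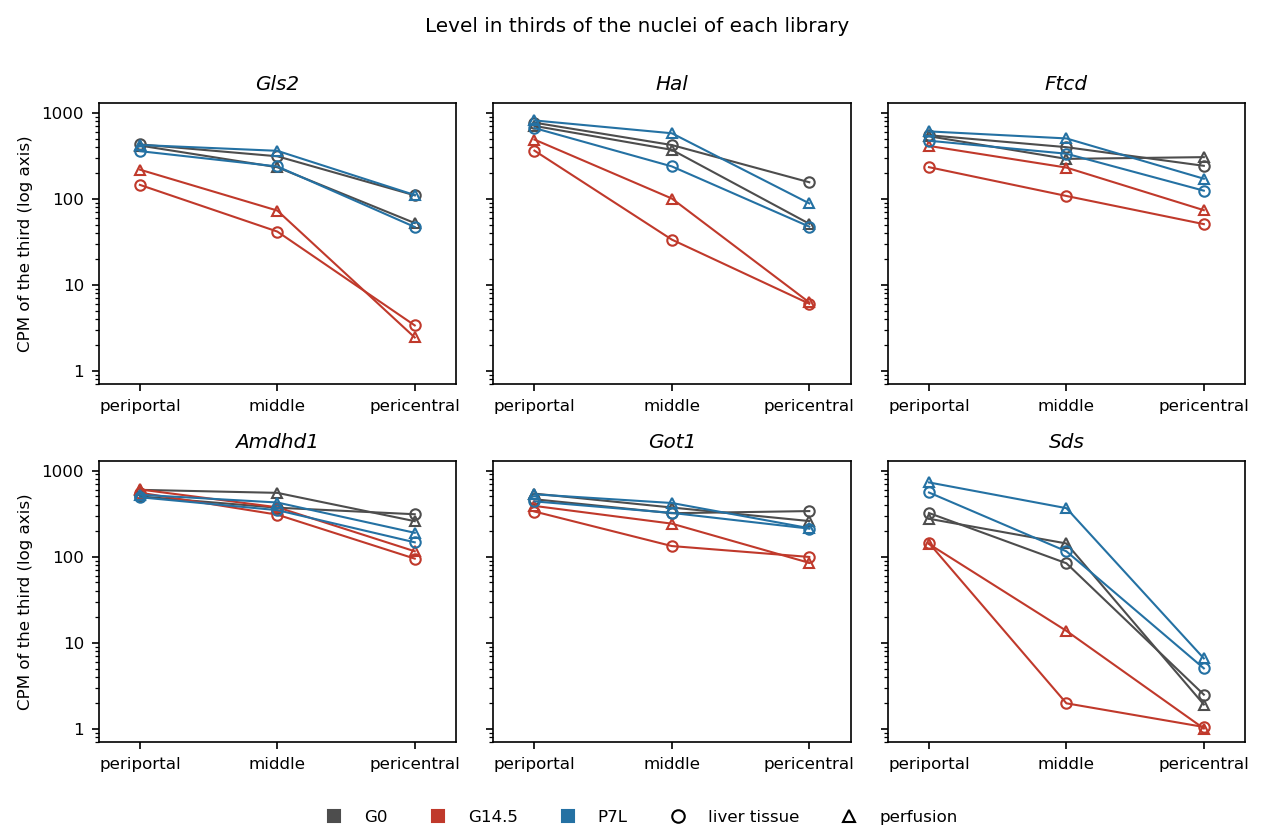
CPM of 6 members in the periportal, middle and pericentral range of the nuclei of each library, on a shared log axis. In the pericentral range the G14.5 libraries hold 3.37 and 2.44 CPM of Gls2 and 6.02 and 6.22 of Hal, below every library of G0 and P7L.

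Beyond the set, 46 other genes of amino acid catabolism were tested. At G14.5 against G0, 8 were lower and 4 higher, where 5.01% and 6.93% of all genes were. The median log2 fold change of the 46 was -0.23. Dhtkd1, which acts after Aadat in lysine breakdown, fell by 1.44 ± 0.13 on the log2 scale (adjusted p = 0.00106), beside the fall of Aass. Hibadh, of valine breakdown, fell by 0.78 ± 0.12 (adjusted p = 0.00811). Pcbd1, which helps recycle tetrahydrobiopterin, rose by 1.10 ± 0.19 (adjusted p = 0.0144). At P7L against G14.5 the list had 9 higher and 4 lower, where 4.2% and 5.06% of all genes were. Dhtkd1 was at 1.35 ± 0.13 (adjusted p = 0.00131) and Cbs, the step before Cth, at -1.78 ± 0.21 (adjusted p = 0.00294). At P7L against G0 the list had 2 higher and 2 lower, where 1.56% and 1.36% of all genes were.

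Of 14 amino acid carriers, 4 were lower and none higher at G14.5 than at G0, where 5.01% and 6.93% of all genes were. At P7L against G14.5, 5 were higher and none lower, where 4.2% and 5.06% were. Slc38a4, a carrier of neutral amino acids, was at 739.5 and 749 CPM in the G0 libraries, 164 and 220 in those of G14.5 and 1146 and 1301 in those of P7L. Slc7a2, which takes up cationic amino acids, was at 1505 and 1007 CPM in the G0 libraries, 341 and 405 in those of G14.5 and 1533 and 1679 in those of P7L. G14.5 was lowest for both, with log2 fold changes against G0 of -1.97 ± 0.13 (adjusted p = 0.000392) and -1.74 ± 0.20 (adjusted p = 0.00319). Of 11 regulators of these pathways, Ppargc1a (-0.69 ± 0.15, adjusted p = 0.0306) and Ppara (-0.52 ± 0.10, adjusted p = 0.0213) were lower at G14.5 than at G0. The other 9 were not called, where 5.01% of all genes were lower and 6.93% higher. At P7L against G14.5 Ppargc1a (0.96 ± 0.15, adjusted p = 0.0112) and Klf15 (0.62 ± 0.15, adjusted p = 0.0486) were higher and Hnf4a was lower (-0.76 ± 0.13, adjusted p = 0.0137). The other 8 regulators were not called, where 4.2% of all genes were higher and 5.06% lower. At P7L against G0 edgeR called the carriers Slc38a4 (0.71 ± 0.13, adjusted p = 0.0391) and Slc25a13 (0.52 ± 0.10, adjusted p = 0.0391) higher. It called Hnf4a lower (-0.73 ± 0.13, adjusted p = 0.0369). The other 12 carriers and 10 regulators were not called, where 1.56% of all genes were higher and 1.36% lower. Nr3c1, Gcgr, Foxo1, Cebpa and Cebpb were called in no stage comparison.

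The preparation of the nuclei moved no member past the threshold. In edgeR 0 of the 37 members and 0% of all genes tested were called between perfusion and liver tissue, and 4 members had an unadjusted p under 0.05 (Uroc1, Cth, Fah and Amdhd1, each higher in perfusion), as had 4.71% of all genes. DESeq2 and limma-voom also called 0 members. The median log2 difference was 0.15 for the members and 0.01 for all genes, with 28 members fitted above 0. Erythroid markers took at least 0.000676% of reads in each liver tissue library and at most 0.000118% in each perfusion library, and their part in these values was not tested. With 1 library of each preparation per stage, a stage effect that differs between preparations could not be tested.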

How the data were processed

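Single nuclei of 6 libraries were analysed from the authors' deposited count table (whole reads per gene and nucleus). Reads were trimmed with Trimmomatic 0.39, aligned with HISAT2 2.1.0 to GRCm38 and counted with featureCounts 1.5.3, per the submitters' processing notes. The strand setting, the annotation and the filters on nuclei are not given in the sources used here. A second deposited table holds the authors' length-scaled signal per nucleus, summing to 100000 without 3 genes, and served only to compare levels between genes and as an alternative.

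Counts were summed per library and fitted with edgeR 4.0.16 (quasi-likelihood, TMM, terms for stage and preparation, two-sided, Benjamini-Hochberg over 15015 genes). Genes had to pass filterByExpr and have a read in 5% of nuclei in 2 libraries. The preparation term is the replicate block, since replicate 1 is liver tissue and replicate 2 perfusion at each stage. Named genes outside the set are all those past the threshold in lists of related genes, shown by rank of p. Summaries used Python 3.11.15. DESeq2 1.42.0 and limma 3.58.1 gave alternatives, and the scripts were tested on simulated data. On counts simulated with known changes, 24 of 130 calls at G14.5 against G0 were false. At P7L the false calls were 4 of 84 against G0 and 5 of 76 against G14.5. Changes of 2-fold were found in 44%, 20% and 10% of cases, in that order. Each simulation changed 50 of 15015 genes at each fold size and held all other genes at 1 mean across libraries. In the data 11.9% of genes were called at G14.5 against G0, so these rates need not hold there. The fit of the zone difference by stage was added after seeing the data. The members and lists were chosen with earlier results of these data known.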

Additional observations from a re-analysis of the deposited data

How the results depend on the processing

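With 2 libraries per stage and 2 residual degrees of freedom, single libraries decided many calls. No result reversed under any alternative. Of the 19 members called at G14.5 against G0, 8 were kept whichever library was left out and 6 (Tat, Prodh, Gpt, Aass, Gpt2 and Uroc1) under all 18 alternatives. Of the 17 called at P7L against G14.5, 7 and 6 (Prodh, Etnppl, Gpt, Agxt, Tdo2 and Gpt2) were kept, and of the 7 at P7L against G0, 0 and 0. Leaving out 1 library gave 10 to 19 members at G14.5 against G0, 0 to 8 at P7L against G0 and 9 to 25 at P7L against G14.5. Without the replicate block (no term for preparation) the counts were 17, 6 and 15. The periportal range alone gave 6 members at G14.5 against G0, 0 at P7L against G0 and 7 at P7L against G14.5. At P7L against G0 the count was 1 with filterByExpr alone, 4 with no filter, 11 with DESeq2, 0 and 1 with the authors' values at pseudocounts of 1 and 0.1, and 0 in the pericentral range. The count of members pericentral in every library was 3 with 4 ranges in place of 3 and 3 after thinning, against 5, and 5 to 7 without 1 library. The count of periportal members was 11 to 13 under those settings and 13 to 16 without 1 library. Scaling by library size alone shifted the median of all genes by -0.12 at G14.5 against G0, 0.08 at P7L against G0 and 0.20 at P7L against G14.5. It gave 20 higher and 2 lower members in the last of these, against 14 and 3. The causes were not tested. Amt and Sdsl were under 10 CPM in every library, with 78.4% to 98.4% of their CPM in the tenth of nuclei with the highest values.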
